A study of Mus musculus with 9 samples.

Results

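Cholesterol is made, taken up and exported by a network of genes that were followed here through the progression of mouse ovarian surface epithelial (MOSE) cells in culture. The 32 genes were chosen by name for their known roles: 4 genes of sterol sensing, 7 of the mevalonate and isoprenoid steps, 11 of the steps from squalene synthase onward, 5 of uptake, transport and storage, and 5 of the liver X receptors (LXR) and efflux. A probe set of the array named 29 of them alone, and for 26 of them the signal of that probe set passed 500 somewhere among the 9 arrays, as it did for 7952 genes in all. Acat2, Soat1 and Nr1h2 were not analysed here for want of such a probe set. Nr1h3, Abcg1 and Apoe stayed under 500 on all 9 arrays and were not tested.

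The cells came from C57BL6 mice and transformed spontaneously as they were passaged, and the labels name no engineered allele or treatment. Premalignant MOSE-E cells were hybridised at passages 13, 14 and 15, transitional MOSE-I cells at passages 63, 71 and 73, and malignant MOSE-L cells at passages 136, 142 and 143, 1 array for each passage, in the order of replicates 1, 2 and 3. All were grown in high glucose DMEM with 4% fetal bovine serum, insulin, transferrin, selenite, penicillin and streptomycin. The 3 stages are passages of a single heterogeneous cell series, and p-values therefore measure the spread between cultures of that series. Passage number and stage cannot be told apart.

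Values are signals of the Affymetrix MAS software, linear intensities without a unit, scaled by the authors to the same trimmed mean of 500 on each array. A signal cannot be set against that of another gene, because probe sets differ in how brightly they hybridise. Changes are differences between stage means of log2(signal + 50), in which 1 stands for about a doubling of a bright gene and less than the true fold of a dim one. A gene was called changed at an adjusted p of at most 0.05 from limma, with Benjamini-Hochberg adjustment over all 13845 tested probe sets, and a change of at least 1 in either direction. The number of arrays, 3 for each stage, limits the precision of each value.

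Cells make cholesterol from acetyl-CoA through mevalonate, farnesyl diphosphate and squalene, and the last steps turn lanosterol into cholesterol. The transcription factor SREBP2, the product of Srebf2, switches on these enzymes when membrane sterol is low: the escort protein Scap carries it to the Golgi for cleavage, and the Insig proteins hold Scap back in the endoplasmic reticulum when sterol is plentiful. Oxysterols activate the LXR receptors, which in turn raise the transporters Abca1 and Abcg1 that load cholesterol onto apolipoproteins outside the cell. Synthesis and efflux thus usually answer to sterol supply in opposite ways.

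The MOSE-E and MOSE-L stages each held 1 array that departed from its stage for these genes. Pearson correlations of log2(signal + 50) with the other arrays of the stage were 0.951 and 0.955 for MOSE-E replicate 1 and 0.889 and 0.907 for MOSE-L replicate 3. MOSE-E replicates 2 and 3 correlated at 0.986 with each other, so that MOSE-E replicate 1 stood apart within its stage over all tested probe sets too. MOSE-I replicate 1 correlated at 0.939 and 0.947 with its stage-mates and MOSE-L replicates 1 and 2 at 0.934 with each other. Correlations lower than those of MOSE-E replicate 1 thus also occurred within the other stages. The ratio of the 3' to the 5' actin probe sets, which rises as RNA is degraded, was 1.83 on MOSE-L replicate 3 and 1.12 to 1.45 on the other 8 arrays, while that of Gapdh was 0.727 there and 0.735 to 0.810 elsewhere. The counts of called genes among the 26 are therefore also given without MOSE-E replicate 1 and MOSE-L replicate 3. Both were singled out after the data were seen, from values of these same genes, which were mostly high on the one and low on the other. Leaving them out thus had to widen the distance between the stages for those genes, and the values without both are descriptions.

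Of the 26 tested genes 12 rose over the whole progression, from MOSE-E to MOSE-L cells, and 1 fell. They were the sterol sensors Insig1 and Insig2, the kinase Pmvk, the squalene synthase Fdft1 and the enzymes after it, Sqle, Cyp51, Tm7sf2, Msmo1, Nsdhl, Hsd17b7, Sc5d and Dhcr7, and the gene that fell was Abca1. Over all 7952 genes, 8.11% were called higher and 7.49% lower in the same comparison. The median change of the 26 genes was 1.01, against 0.03 over all tested genes, and 25 of 26 values were above 0. Every MOSE-L array lay above every MOSE-E array for 13 of the 26 genes, where 23.1% of all genes did so, and below for 1, where 21.7% did so. The 26 genes include Tm7sf2 and Npc1, which no MOSE-E array showed over 500 and which entered the test through a later stage alone. The call of Tm7sf2, counted among the 12, is thus no support for a rise. Abca1 passed 500 on every MOSE-E array, on 1 MOSE-I array and on no MOSE-L array, which limits its call too.

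The count of genes that rose was 18 without MOSE-E replicate 1, 17 without MOSE-L replicate 3 and 20 without both, and it ran from 9 to 12 when another array was left out. The calls of Pmvk and Fdft1 depended on several arrays. Pmvk missed the adjusted p without MOSE-E replicate 2 (0.109) or 3 (0.130) and without MOSE-L replicate 1 (0.0900) or 2 (0.0584), and Fdft1 without the same arrays (0.105, 0.106, 0.0754 and 0.0569, in that order). Hsd17b7 had a change of 0.96 without MOSE-L replicate 2, and Tm7sf2 had 0.98 without MOSE-E replicate 2 and 0.96 without MOSE-L replicate 1, each just short of the minimum change.

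**Figure D1:**
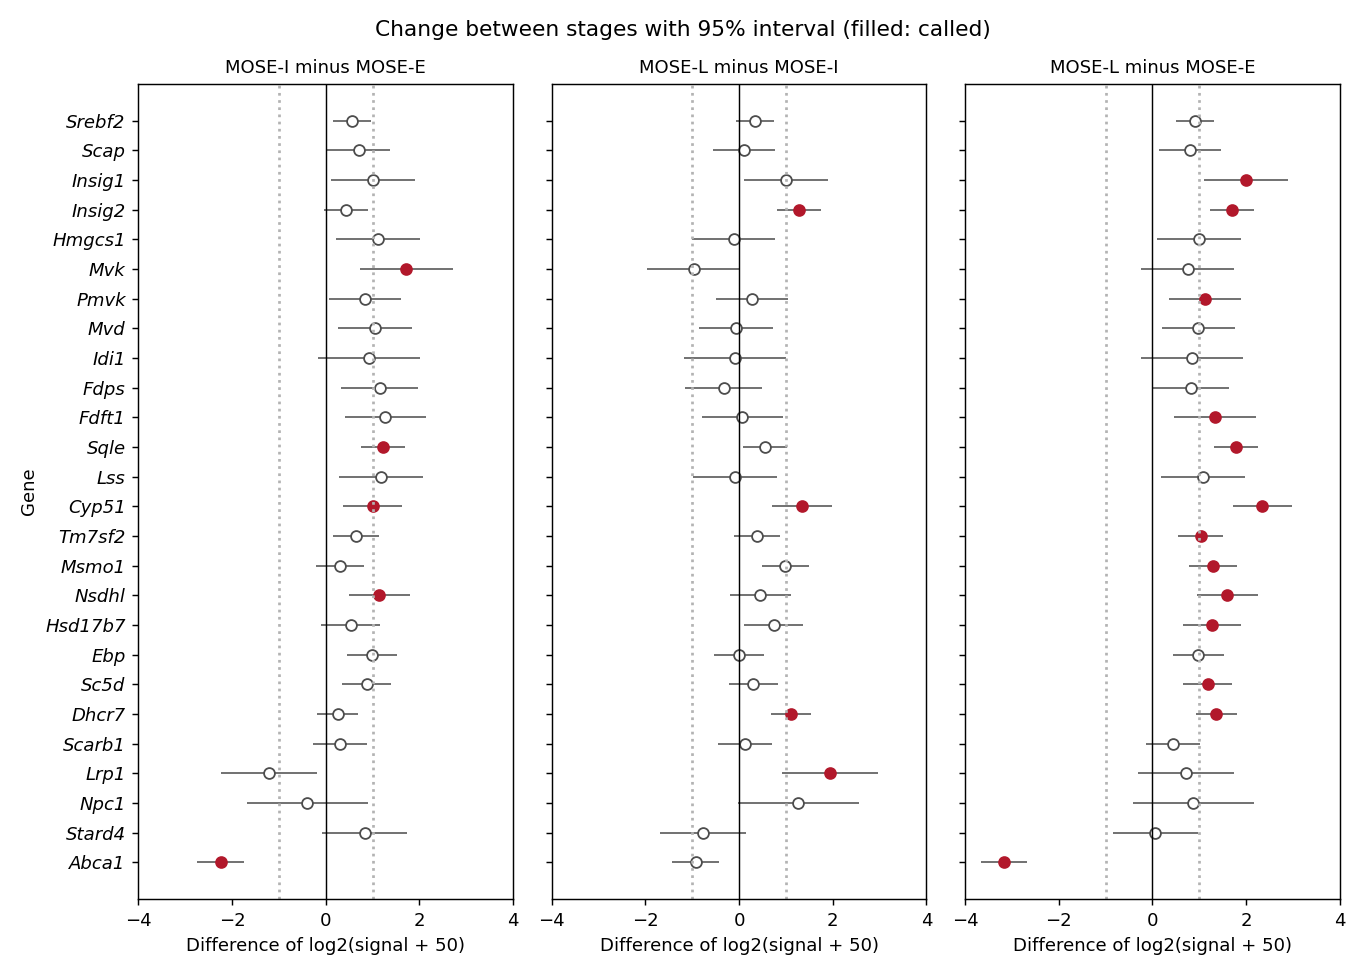
Change of each of the 26 tested genes between stages (points, difference of stage means of log2(signal + 50)) with its 95% interval from the limma fit on 9 arrays; filled points were called and dotted lines mark a change of 1. Points of the synthesis enzymes lie mostly right of 0 in the MOSE-L minus MOSE-E panel, where 12 genes were called higher, and Abca1 lies alone far to the left at -3.17.

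Sequences just before the transcription start are shown for 4 genes with higher mean signals in MOSE-L cells, of which Insig1, Cyp51 and Nsdhl were called, and for Abca1, to set side by side motifs known from sterol-regulated promoters. Motifs were searched on both strands of RefSeq windows of the assembly GRCm38.p6, from 250 bases before to 50 after each annotated start: the classical sterol regulatory element TCACNCCAC, the CCAAT box bound by NF-Y (CCAAT), the GC box bound by Sp1 (GGGCGG) and the E-box CACGTG. Capitals mark these motifs or their reverse complements, which for the CCAAT box reads ATTGG. The first 4 stretches run up to the base before the start. That of Abca1 holds only the first 150 bases of its window and ends before the outermost annotated start of the gene. It leaves out the bases nearest the start of that window, with a GC box among them.
Hmgcs1, chr13:119690101-119690350, plus strand: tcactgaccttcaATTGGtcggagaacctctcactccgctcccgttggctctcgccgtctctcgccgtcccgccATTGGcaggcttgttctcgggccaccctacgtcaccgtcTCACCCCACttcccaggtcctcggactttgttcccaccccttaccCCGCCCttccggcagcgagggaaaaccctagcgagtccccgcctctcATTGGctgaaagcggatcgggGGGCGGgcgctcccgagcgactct
Insig1, chr5:28071162-28071411, plus strand: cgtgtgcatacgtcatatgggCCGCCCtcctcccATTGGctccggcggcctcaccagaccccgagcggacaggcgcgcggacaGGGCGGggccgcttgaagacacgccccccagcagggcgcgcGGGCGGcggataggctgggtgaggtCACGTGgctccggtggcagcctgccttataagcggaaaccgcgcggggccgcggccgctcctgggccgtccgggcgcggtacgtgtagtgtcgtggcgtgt
Cyp51, chr5:4104698-4104947, minus strand: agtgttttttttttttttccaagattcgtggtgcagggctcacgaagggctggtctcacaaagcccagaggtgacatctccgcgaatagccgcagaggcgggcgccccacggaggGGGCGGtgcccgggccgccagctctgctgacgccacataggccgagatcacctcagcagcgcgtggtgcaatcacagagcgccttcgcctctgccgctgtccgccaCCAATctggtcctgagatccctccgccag
Nsdhl, chrX:72918271-72918520, plus strand: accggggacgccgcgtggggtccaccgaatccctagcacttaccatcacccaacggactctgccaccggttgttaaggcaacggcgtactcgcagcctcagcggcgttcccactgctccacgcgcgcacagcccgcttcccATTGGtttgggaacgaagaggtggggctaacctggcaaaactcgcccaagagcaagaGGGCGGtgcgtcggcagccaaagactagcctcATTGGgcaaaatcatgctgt
Abca1, chr4:53159996-53160145, minus strand: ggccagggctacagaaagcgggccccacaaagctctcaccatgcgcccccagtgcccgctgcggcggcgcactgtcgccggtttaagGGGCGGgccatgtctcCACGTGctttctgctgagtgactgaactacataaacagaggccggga

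Windows were listed for 25 of the 32 genes and 15 of the 18 synthesis enzymes. A CCAAT box stood in a window of 14 of these 15 enzymes, where 41.1% of all 27025 genes with a window had one, and a GC box in 14 of 15, where 38.2% did. Acat2 was the enzyme without a CCAAT box and Pmvk that without a GC box. Hmgcs1 was alone among the 25 genes in holding the classical sterol element, 137 bases before its start, as did 1.44% of all genes, and it had 3 CCAAT boxes within 250 bases before it. The E-box was found in 3 of 15 enzymes, Hsd17b7, Sc5d and Dhcr7, where 8.09% of all genes had one, and in Insig1, Scap and Abca1. Abca1 had no CCAAT box in its window. These matches describe letters in short windows, and none was tied to binding by a measurement here.

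Of the 4 genes of sterol sensing, Insig1 and Insig2 rose from MOSE-E to MOSE-L cells, while Srebf2 and Scap were not called. Insig1 (probe set 1454671_at), which anchors Scap and is itself a strong SREBP2 target, had signals of 3582, 1171 and 1010 on the MOSE-E arrays, 4051, 2894 and 3081 on the MOSE-I arrays and 8280, 6527 and 5420 on the MOSE-L arrays. All MOSE-L values lay above all others, and MOSE-E replicate 1 lay within the MOSE-I range, well above its stage-mates. The change was 2.00 ± 0.40 between MOSE-E and MOSE-L (SE; adjusted p = 0.00539), and 2.56 without MOSE-E replicate 1.

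Insig2 (1417981_at), a relative of Insig1 with the same role, took another course. Its signals were 1302, 948 and 1069 in MOSE-E, 1650, 1484 and 1372 in MOSE-I and 3355, 3194 and 4677 in MOSE-L cells. The stages did not overlap, and most of the distance lay after MOSE-I: the change was 1.27 ± 0.20 from MOSE-I to MOSE-L (adjusted p = 0.00279) and 0.43 ± 0.20 from MOSE-E to MOSE-I (adjusted p = 0.181). All 3 of its tested probe sets were called in this stage against MOSE-E, with changes of 1.49 to 1.70.

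Srebf2 (1452174_at) itself gave 873, 839 and 835 in MOSE-E, 1258, 1169 and 1426 in MOSE-I and 1499, 2005 and 1467 in MOSE-L cells. The 3 stages did not overlap and were ordered as the passages were, but the change of 0.91 ± 0.18 (adjusted p = 0.00484) stayed short of the minimum change. A second Srebf2 probe set, 1426744_at, had a change of 1.27 and was called (adjusted p = 0.00426). Scap varied widely within stages, from 593 to 970 in MOSE-E and from 808 to 1667 in MOSE-L cells, which overlapped, with a change of 0.80 ± 0.29 (adjusted p = 0.0650).

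**Figure D2:**
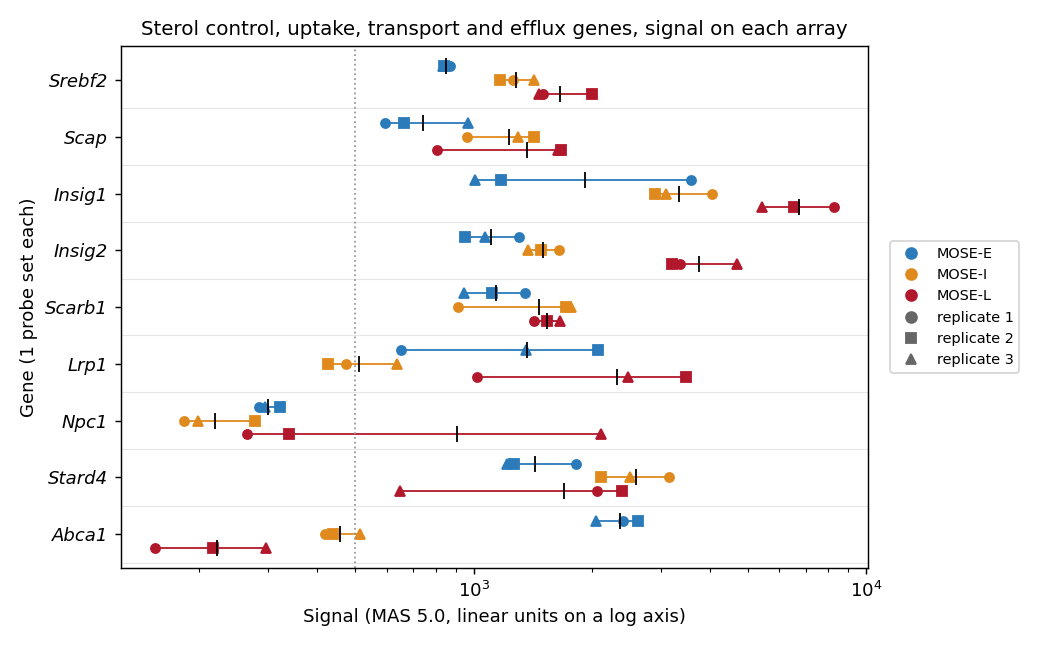
Signals of the 9 tested genes of sterol control, uptake, transport and efflux on each array (log axis); colour gives the stage, marker shape the replicate, black ticks the stage mean, bars the range and the dotted line a signal of 500. MOSE-L points lie right of the MOSE-E points for Insig1 and Insig2 and left of them for Abca1, Lrp1 dips in MOSE-I cells, and the MOSE-L replicate 3 triangles of Npc1 (2112) and Stard4 (647) stand apart from their stage; levels of different genes are not comparable.

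The early enzymes, which make farnesyl diphosphate from acetyl-CoA, differed more from MOSE-E to MOSE-I than from MOSE-I to MOSE-L cells. Their 6 tested genes had a median change of 1.08 from MOSE-E to MOSE-I, of -0.10 from MOSE-I to MOSE-L (0.32 without MOSE-L replicate 3) and of 0.91 over the whole distance (1.71 without both departing arrays). Only Mvk was called in the first comparison, Pmvk in the last, and none between MOSE-I and MOSE-L cells. Hmgcs1 (1433445_x_at), the synthase that makes HMG-CoA, gave 15163, 6192 and 6843 in MOSE-E, 22158, 16892 and 17406 in MOSE-I and 26339, 20392 and 9502 in MOSE-L cells. The first MOSE-E array and the third MOSE-L array crossed, so that these stages overlapped, while MOSE-I lay wholly above MOSE-E. Its change was 0.99 ± 0.40 between MOSE-E and MOSE-L (adjusted p = 0.0866), and 1.82 without both of those arrays.

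Mvk (1418052_at), the kinase that phosphorylates mevalonate, was highest in MOSE-I cells. Its signals of 1366, 1176 and 1363 there compared with 755, 212 and 273 in MOSE-E and 813, 979 and 316 in MOSE-L cells, so that MOSE-I lay above every array of both other stages. The change was 1.72 ± 0.44 from MOSE-E to MOSE-I (adjusted p = 0.0352) and -0.97 ± 0.44 from MOSE-I to MOSE-L (adjusted p = 0.114), and the call was lost without any one of MOSE-E replicates 2 (adjusted p = 0.162) and 3 (0.148) and of MOSE-I replicates 1 (0.0699), 2 (0.0822) and 3 (0.123). A second Mvk probe set, 1430619_a_at, was also highest in MOSE-I cells. Its change of 0.97 from MOSE-E to MOSE-I was not called (adjusted p = 0.0530).

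Pmvk, the next kinase, had 1013, 527 and 449 in MOSE-E, 977, 1149 and 1381 in MOSE-I and 2226, 1339 and 941 in MOSE-L cells. MOSE-L replicate 3 lay under MOSE-E replicate 1, and the stages overlapped although the change of 1.12 ± 0.34 was called (adjusted p = 0.0326). Mvd, which decarboxylates the product, Idi1, the isomerase of isopentenyl diphosphate, and Fdps, the farnesyl diphosphate synthase, shared this arrangement. Their changes over the whole distance were 0.98, 0.85 and 0.82, none called with all arrays (adjusted p = 0.0582, 0.216 and 0.114). Without both departing arrays the changes were 1.67, 1.76 and 1.55.

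The later enzymes, from squalene synthase to the last reductase, held most of the calls. Of their 11 genes 9 rose between MOSE-E and MOSE-L cells, with a median change of 1.30, and the remaining pair, Lss and Ebp, had changes of 1.08 and 0.98. The 9 include Tm7sf2, whose call is no support for a rise. The median was 0.99 from MOSE-E to MOSE-I and 0.46 from MOSE-I to MOSE-L, so that the later enzymes had positive medians over both distances, which the early ones had only without MOSE-L replicate 3. The difference between the early and the later enzymes was not tested.

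Cyp51 (1450646_at), the sterol 14-demethylase that acts on lanosterol, rose by 2.35 ± 0.28 over the whole distance (adjusted p = 0.000298), and by 1.93 on the mean over its probe sets. Its signals were 5762, 2774 and 2766 in MOSE-E, 8485, 6474 and 6637 in MOSE-I and 21514, 17462 and 16109 in MOSE-L cells. No stages overlapped, and each step upward was called on this probe set. The change was 1.00 ± 0.28 in the first (adjusted p = 0.0465) and 1.34 ± 0.28 in the second (adjusted p = 0.00868). The first step ran from 0.42 to 1.00 over the 3 tested probe sets, with 1 called. The second ran from 0.85 to 1.34, with 2 called. On the mean over the probe sets the first step was 0.78 (adjusted p = 0.111) and not called. The first of these steps lost its call without any one of 6 arrays, MOSE-E replicates 2 and 3, each MOSE-I replicate and MOSE-L replicate 2 (adjusted p = 0.0590 to 0.200), while the second kept it in all 9 cases.

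Sqle (1415993_at), squalene epoxidase, which starts the oxygen-requiring part of the pathway, gave 4625, 3026 and 3021 in MOSE-E, 7116, 8677 and 8891 in MOSE-I and 11600, 12759 and 11995 in MOSE-L cells. Again no stages overlapped, and MOSE-L replicate 3 lay among its stage-mates. From MOSE-E the change reached 1.22 ± 0.20 in the middle stage (adjusted p = 0.00804), a call lost without MOSE-E replicate 2 (0.0551) or 3 (0.0577), and 1.78 ± 0.20 in the last (adjusted p = 0.000227).

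Dhcr7 (1448619_at), the reductase of the final step, and Msmo1 (1423078_a_at), the C-4 methyl oxidase once named Sc4mol, rose late. Dhcr7 signals were 674, 524 and 543, then 836, 554 and 742, then 1519, 1647 and 1545 on the arrays of the successive stages. Msmo1 gave 11225, 6955 and 7039, then 12498, 9252 and 8967, then 21539, 19089 and 19982. For both genes MOSE-E and MOSE-I overlapped, while the MOSE-L arrays stood together above all 6 others. The changes from MOSE-I to MOSE-L were 1.11 ± 0.19 for Dhcr7, which was called (adjusted p = 0.00364; 0.95 without MOSE-I replicate 2), and 0.99 ± 0.22 for Msmo1, which was not (adjusted p = 0.0116).

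Nsdhl (1416222_at), the C-4 decarboxylase that follows Msmo1, was instead mostly up by MOSE-I. It gave 2358, 1479 and 1146 in MOSE-E, 3432, 3613 and 3669 in MOSE-I and 5981, 5877 and 3386 in MOSE-L cells. MOSE-I lay wholly above MOSE-E with little spread, and MOSE-L replicate 3 lay at the MOSE-I level. The change was 1.14 ± 0.29 to MOSE-I (adjusted p = 0.0337), a call lost without MOSE-E replicate 2 (0.143) or 3 (0.155) and without MOSE-I replicate 1 (0.0555), 2 (0.0924) or 3 (0.122), and 1.60 ± 0.29 to MOSE-L cells (adjusted p = 0.00317).

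Fdft1, squalene synthase, gave 5782, 2237 and 2386 in MOSE-E and 12404, 8111 and 5131 in MOSE-L cells, which overlapped because MOSE-E replicate 1 lay above MOSE-L replicate 3 (change 1.34 ± 0.38, adjusted p = 0.0273). The remaining called enzymes did not overlap between MOSE-E and MOSE-L. Sc5d, the sterol C-5 desaturase, changed by 1.18 ± 0.23 (adjusted p = 0.00460), Tm7sf2, a sterol C-14 reductase, by 1.03 ± 0.21 (adjusted p = 0.00600), and Hsd17b7, a C-3 ketosteroid reductase, by 1.27 ± 0.27 (adjusted p = 0.00791). A second Sc5d probe set, 1434520_at, had a change of 1.91 and was called too. For Hsd17b7 the probe set counted, 1457248_x_at, is of a type that can bind related transcripts, and 2 others of the gene had changes of 0.49 and 0.70 that were not called.

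Ebp, the sterol isomerase, lay higher on every MOSE-I and MOSE-L array than on any MOSE-E array (change 0.98 ± 0.23, adjusted p = 0.0124), just short of the minimum change. Lss, lanosterol synthase, was measured by 2 probe sets that disagreed. The brighter one, 1420013_s_at, gave 1490, 583 and 853 in MOSE-E and 2515, 3016 and 1014 in MOSE-L cells, which overlapped (change 1.08 ± 0.40, adjusted p = 0.0671). The other, 1426913_at, gave 627, 198 and 202 in MOSE-E, 693, 848 and 932 in MOSE-I and 2813, 3001 and 1531 in MOSE-L cells, with no overlap and a called change of 2.78 ± 0.38 (adjusted p = 0.000711). On both, MOSE-L replicate 3 was the lowest of its stage.

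**Figure D3:**
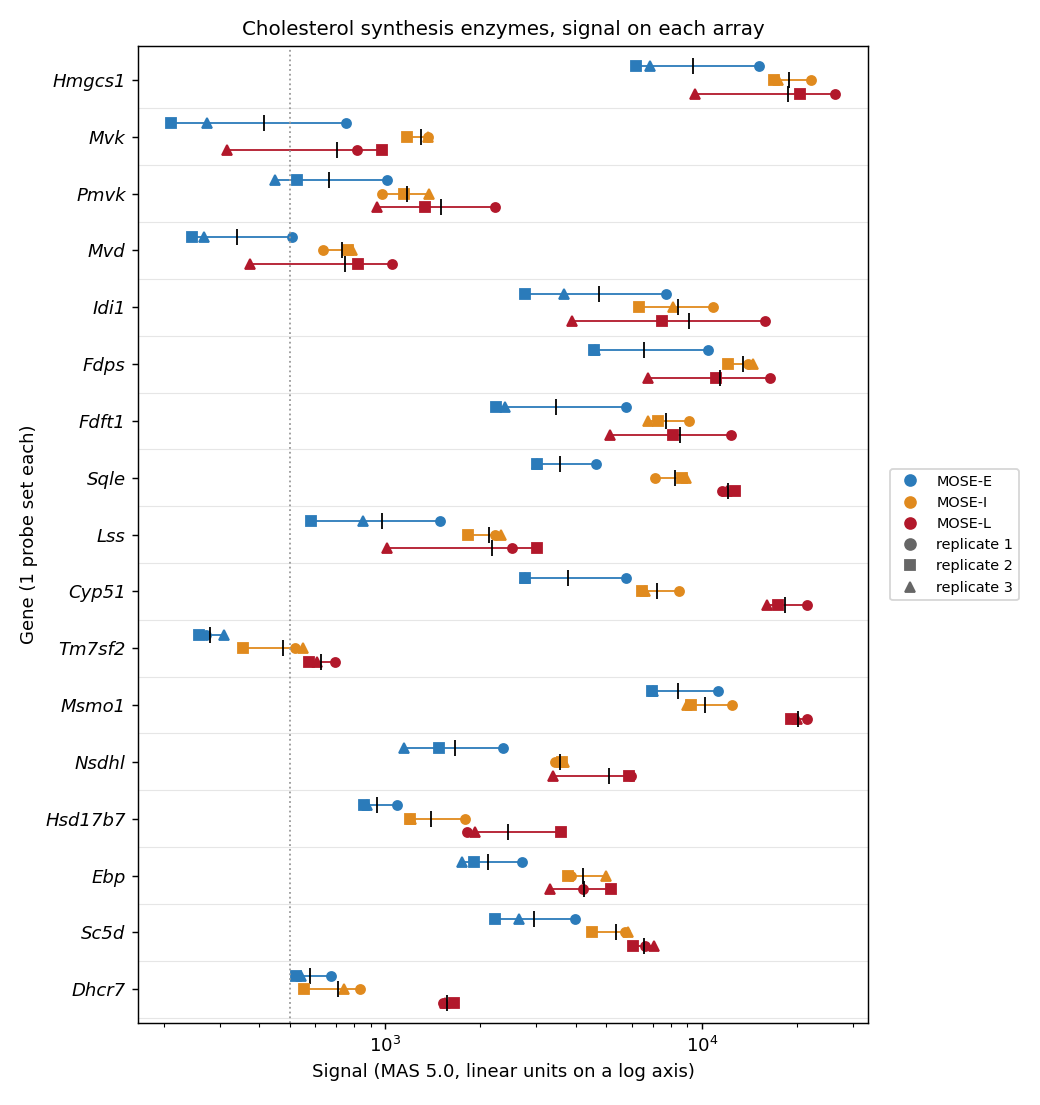
Signals of the 17 tested synthesis enzymes on each array (log axis), in pathway order from Hmgcs1 at the top to Dhcr7; colour gives the stage, marker shape the replicate, black ticks the stage mean, bars the range and the dotted line a signal of 500. MOSE-E circles (replicate 1) lie to the right of their stage for all genes but Tm7sf2. In the upper rows MOSE-L triangles (replicate 3) lie to the left, whereas the MOSE-L arrays of Sqle, Cyp51, Msmo1 and Dhcr7 stand together. Levels of different genes are not comparable.

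MOSE-E replicate 1, the earliest passage, lay above the mean of its 2 stage-mates for 16 of 17 synthesis enzymes, with a median difference of 0.87 on the log2 scale. Tm7sf2 was the exception at -0.05. Over all 7952 genes 53.4% lay above, with a median of 0.03 and a 95th percentile of 0.66. Insig1 had the largest difference of the 26 genes, 1.67, and Mvk the largest of the enzymes, 1.47, while Lrp1 went the other way at -1.30.

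MOSE-L replicate 3, the latest passage, lay below the mean of its 2 stage-mates for 16 of 17 enzymes and below both of them for 11, with a median of -0.80 and a lowest value of -1.47 for Idi1. Over all genes 48.7% lay above that mean there, with a median of -0.02 and a 5th percentile of -0.99. The deficit was not even along the pathway. The 6 early enzymes lay between -1.47 and -0.84, Lss at -1.40, Fdft1 at -0.96 and Nsdhl at -0.80, whereas Sqle, Tm7sf2, Msmo1 and Dhcr7 lay between -0.05 and -0.02 and Sc5d at 0.15. On the same array Stard4 lay at -1.70 and Npc1 at 2.63 relative to the other MOSE-L arrays. The part of RNA quality in these departures was not tested.

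**Figure D4:**
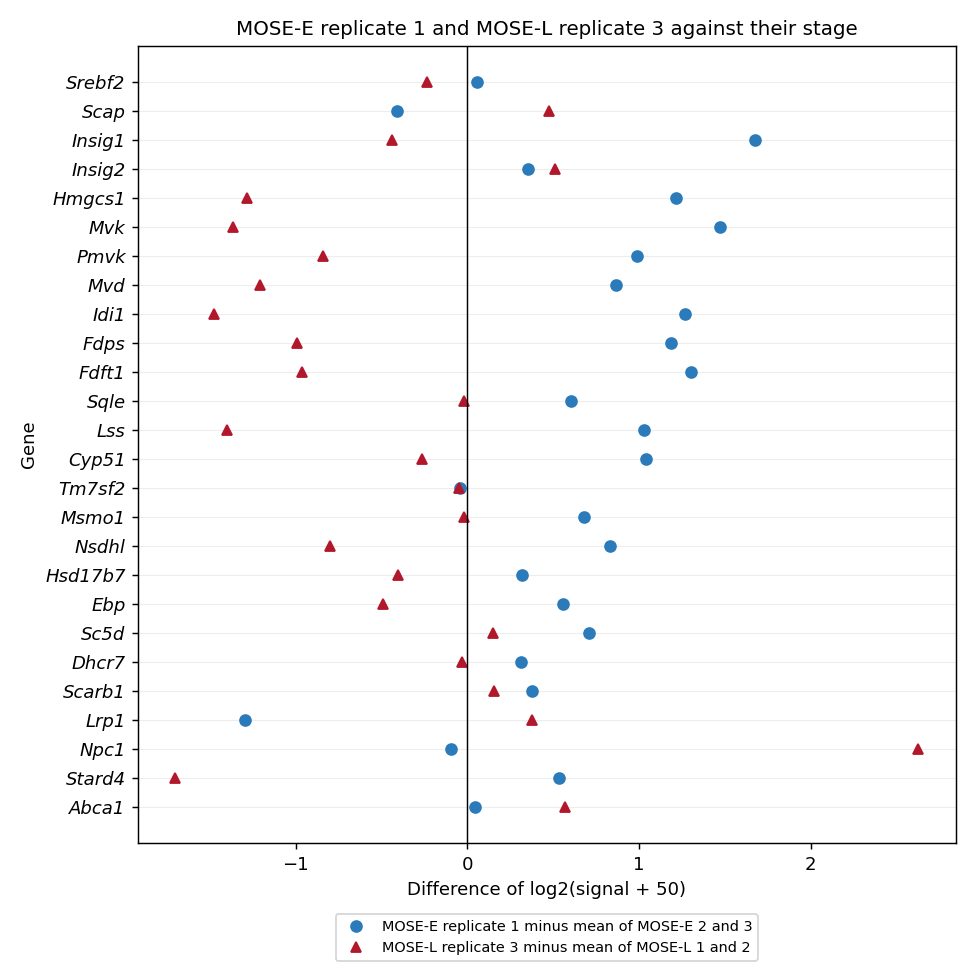
Difference of log2(signal + 50) between MOSE-E replicate 1 and the mean of the other MOSE-E arrays (circles) and between MOSE-L replicate 3 and the mean of the other MOSE-L arrays (triangles) for the 26 tested genes. Circles lie right of 0 for 16 of 17 synthesis enzymes and triangles left of 0 for 16 of 17, with Npc1 far right at 2.63.

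From MOSE-E to MOSE-I cells, 4 of the 26 genes rose, Mvk, Sqle, Cyp51 and Nsdhl, and Abca1 fell, where 2.29% of all genes were called higher and 3.61% lower. The median change was 0.86, against 0.03 over all genes, and 23 of 26 values were above 0. Every MOSE-I array lay above every MOSE-E array for 16 genes and below for 3, against 23.4% and 17.8% of all genes. Mvk was called on 1 of its 2 tested probe sets and Cyp51 on 1 of 3. The count of genes that rose was 13 without MOSE-E replicate 1, 9 without MOSE-L replicate 3 and 15 without both. It was 0 without MOSE-E replicate 2 or 3, 2 without MOSE-I replicate 1, and 1 without MOSE-I replicate 2 or 3. The genes that fell were 2 without MOSE-E replicate 1 or MOSE-L replicate 1.

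From MOSE-I to MOSE-L cells, Insig2, Cyp51, Dhcr7 and Lrp1 rose and none fell, where 7.38% of all genes were called higher and 6.04% lower. Sc5d and Lss were not called on the probe set counted, but each was called higher on its other tested probe set (changes of 1.22 and 1.47). In limma 2 genes were lower at an unadjusted p under 0.05, Abca1 and Mvk, neither with a change of -1 or beyond. The methods' t-test with its fold and an unadjusted p counted 4 higher and 1 lower, and limma called 1 lower, Abca1, without MOSE-L replicate 3. The median was 0.29, against -0.02 over all genes. Every MOSE-L array lay above every MOSE-I array for 11 genes and below for 2, against 20.7% and 23.5% of all genes. The count of genes that rose stayed between 3 and 5 when any 1 array was left out, and it was 5 without both departing arrays, with 1 that fell. The comparisons share arrays, so that their values are not independent of each other.

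Genes of uptake and intracellular transport did not move together. Lrp1 (1448655_at), an endocytic receptor for remnant lipoproteins and many other ligands, gave 655, 2077 and 1359 in MOSE-E, 472, 425 and 637 in MOSE-I and 1019, 3482 and 2469 in MOSE-L cells. The MOSE-I arrays were lowest, below all others, while MOSE-E and MOSE-L overlapped. Lrp1 rose by 1.94 ± 0.45 from MOSE-I to MOSE-L (adjusted p = 0.0139), and its change to MOSE-I, -1.21 ± 0.45, was not called (adjusted p = 0.105), though it was without MOSE-E replicate 1 (-1.64, adjusted p = 0.0380).

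Scarb1 (1455820_x_at), the receptor that takes cholesteryl ester from HDL, ranged from 947 to 1351 in MOSE-E, from 913 to 1774 in MOSE-I and from 1425 to 1659 in MOSE-L cells. Its 3 probe sets had changes of 0.42 to 0.43 between MOSE-E and MOSE-L, none called. Stard4, which carries cholesterol between membranes and is a sterol-repressed gene, gave 1823, 1270 and 1213 in MOSE-E, 3142, 2111 and 2502 in MOSE-I and 2061, 2382 and 647 in MOSE-L cells. MOSE-I lay above MOSE-E, and MOSE-L replicate 3 lay below every other array. The change over the whole distance was 0.07 ± 0.40 (adjusted p = 0.922), and 0.81 without both departing arrays. Over the 3 tested Stard4 probe sets it ran from 0.07 to 0.62, with none called.

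Npc1 (1423086_at), the lysosomal protein that passes cholesterol out of late endosomes, was dim except on 1 array. Its signals were 284, 321 and 294 in MOSE-E, 183, 277 and 199 in MOSE-I and 265, 339 and 2112 in MOSE-L cells. The last of these values alone brought it over 500. Its change of 0.88 ± 0.57 (adjusted p = 0.279) was 0.00 without MOSE-L replicate 3.

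Abca1 (1421840_at), which exports cholesterol and phospholipid to apolipoprotein A-I, was the one tested gene that fell. It gave 2394, 2621 and 2050 in MOSE-E, 418, 438 and 514 in MOSE-I and 154, 216 and 296 in MOSE-L cells. No stages overlapped. The mean signal at the first stage was 2355 ± 287, and that at the last 222 ± 71.4 (SD, n = 3). Its change from MOSE-E was -2.24 ± 0.22 (adjusted p = 0.000925) by the middle stage and -3.17 ± 0.22 (adjusted p = 8.62e-06) by the last, and each of these calls held when any 1 array was left out. The further change from MOSE-I to MOSE-L, -0.92 ± 0.22 (adjusted p = 0.0137), fell short of the minimum, and it was called without MOSE-L replicate 3 (-1.12). Of the 3 Abca1 probe sets only 1421840_at was tested. The others did not exceed the minimum signal for testing on any array, MOSE-E arrays included. The fall of Abca1 was thus read from 1 probe set. As the arrays measured whole cultures, fewer cells with Abca1 and less Abca1 RNA in each cell cannot be told apart.

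The other measured genes of the LXR and efflux group were dim. Nr1h2, of the same group, had no probe set naming it alone, and its level is not known here. Nr1h3, which encodes LXR alpha, had signals from 8.38 to 163, the half-transporter Abcg1 from 62.4 to 173 and Apoe, the apolipoprotein that accepts cholesterol, from 7.84 to 135, and the MOSE-E range overlapped those of the other stages for each gene. For Nr1h3 the stage means, from first to last, were 75.8 ± 18.7, 50.8 ± 27.1 and 81.8 ± 77.4 (SD, n = 3). With 32.4% of all signals on the arrays under 50, these genes lay near the dim end of the scale, and no change was read from them.

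A list of 40 other genes of sterol metabolism was followed as well, of which 25 were tested. Between MOSE-E and MOSE-L cells 6 rose and 1 fell, where 8.11% of all genes were called higher and 7.49% lower. The median change was 0.54, and none was called to MOSE-I, where limma gave 4 higher and 1 lower at an unadjusted p under 0.05. From MOSE-I to MOSE-L 5 rose and 1 fell, against 7.38% and 6.04% of all genes. Those that rose from MOSE-E were Cyp27a1, Pltp, Vldlr, Npc2, Nceh1 and Stard5, those that rose from MOSE-I were Cyp27a1, Vldlr, Nceh1, Mbtps1 and Abca7, and Cav1 fell in both comparisons. Mbtps1, the protease that makes the first cut in SREBP proteins, had a change of 1.04 ± 0.24 from MOSE-I (adjusted p = 0.0132). The transporter gene Abca7 passed 500 on MOSE-L replicate 2 alone, and its call is no support for a rise. These counts were not repeated without the departing arrays. Cyp27a1, the mitochondrial sterol 27-hydroxylase, gave 29.2, 18.6 and 95.7 in MOSE-E, 3.30, 168 and 66.6 in MOSE-I and 277, 592 and 1441 in MOSE-L cells. It passed 500 on MOSE-L arrays alone and so entered the test through the stage where it was high, and its calls are no support for a rise. Both counts of genes that rose include Cyp27a1, and that from MOSE-I includes Abca7 too.

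Pltp, which transfers phospholipid between lipoproteins, gave 835, 696 and 781 in MOSE-E and 2005, 1580 and 9014 in MOSE-L cells (change 1.93 ± 0.54, adjusted p = 0.0243). Vldlr, a lipoprotein receptor, gave 1684, 1786 and 699 in MOSE-E and 3773, 2708 and 8543 in MOSE-L cells (change 1.75 ± 0.47, adjusted p = 0.0217). MOSE-L replicate 3 was the highest array for all 6 genes of the list that rose from MOSE-E. They were Cyp27a1, Pltp, Vldlr, Npc2, Nceh1 and Stard5. It was so too for Mbtps1 and, among the 26 genes, for Insig2, Sc5d and Npc1. Cav1, the caveolar coat protein that binds cholesterol, gave 19919, 23212 and 32032 in MOSE-E, 19921, 24166 and 20283 in MOSE-I and 8348, 6144 and 5884 in MOSE-L cells, with MOSE-L below all others (change from MOSE-E -1.86 ± 0.22, adjusted p = 0.000250).

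Markers of the cell type and of others were read beside these genes. All 8 markers of ovarian surface epithelium and mesothelium were tested. Between MOSE-E and MOSE-L cells 4 of them fell, Krt7, Krt8, Krt19 and Lrrn4, and none rose, where 7.49% of all genes were called lower. Krt7 fell the most, from 3328 ± 476 to 129 ± 63.6 (SD, n = 3). Wt1 and Upk3b went the other way, with every MOSE-L array above every MOSE-E array, as for 23.1% of all genes, and neither was called. The change was 0.94 ± 0.28 for Wt1 (adjusted p = 0.0327), short of the minimum change, and 0.59 ± 0.37 for Upk3b (adjusted p = 0.257). Against MOSE-I, Wt1 and Msln were called higher in MOSE-L and Krt8 lower. The summed signal of all 8 per array was 65284 to 69068 at the first stage, 49901 to 63883 at the second and 42997 to 61936 at the last. Of 8 macrophage markers 2 were tested, Csf1r and Cd14, and neither was called, although both were higher in MOSE-I than MOSE-E cells at an unadjusted p under 0.05; all 8 together summed to 1057 to 1283, 1352 to 2546 and 1279 to 1951 at the successive stages. The defining leukocyte gene Ptprc reached at most 51.9 and Lyz2 at most 170.4 on any array. No endothelial marker of 6 and none of 4 adipocyte markers passed 500.

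Of the markers of steroid-making ovarian cells, which draw on cholesterol as a substrate, 6 had a probe set and 1 was tested. Star, which carries cholesterol into mitochondria, gave 51.8, 45.2 and 9.88 in MOSE-E, 76.3, 30.7 and 80.6 in MOSE-I and 308, 254 and 1402 in MOSE-L cells, the last on the array where Npc1 stood apart. It passed 500 on that array alone, and no change is read from its test. Cyp11a1, Cyp17a1 and Hsd3b1, the enzymes that define those cells, reached at most 119 on any array. Foxl2, a granulosa cell transcription factor of the same list, stayed under 500 but did not overlap between stages, with signals of 204 to 278, then 286 to 330, then 419 to 491. The summed signal of the 6 genes was 563 to 885, 726 to 838 and 1017 to 1166 at the successive stages. The part of cell makeup in the changes of the synthesis and efflux genes was not tested.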

How the data were processed

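RNA of 3 MOSE-E, 3 MOSE-I and 3 MOSE-L cultures was hybridised to Affymetrix Mouse Genome arrays. The authors made the deposited intensities, linear signals per probe set, with the Affymetrix MAS software and brought every array to the same trimmed mean, 500; a genome build is not given in the sources used here. The 45101 probe sets were matched to genes through the platform's annotation (34958 named 1 gene, 932 several, 9211 none), with symbols updated by gene ID to a RefSeq table. The 64 controls were dropped, and so were probe sets that nowhere exceeded 500. Stage means of log2(signal + 50) were fitted over the 9 arrays in limma 3.58.1 (R 4.3.3), whose moderated variances followed a trend with signal, after a test on simulated data. A gene took its brightest tested probe set naming it alone. All 32 genes are reported; of the 40 other sterol genes, those called are named and values are given for the 4 with the largest change between MOSE-E and MOSE-L cells. The genes, lists and tests were chosen with earlier results of these data known. Alternatives were another added value, filter, scaling, variance prior, probe set rule, minimum change or set of arrays, the replicate number as a block, and the methods' t-test on linear signals. Intervals are 95% intervals of the fit.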

Additional observations from a re-analysis of the deposited data

How the results depend on the processing

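Of the 26 genes' changes in 3 comparisons, each under up to 23 alternatives, 1592 kept their direction and side of the threshold, 85 became called, 68 lost the call and 46, none of them called, turned direction. The count that rose from MOSE-E to MOSE-L, 12, was 5 by the methods' t-test after Benjamini-Hochberg, 9 to 18 with 1 array left out and 20 without MOSE-E replicate 1 and MOSE-L replicate 3 together. From MOSE-E to MOSE-I, 4 rose; the count was 1 without a signal filter, 9 from only the groups compared, 8 and 0 by the t-test without and with adjustment, 0 to 13 with 1 array left out and 15 without both, while those that fell were 2 from only the groups compared, 0 by the adjusted t-test, 1 to 2 with 1 array left out and 2 without both. From MOSE-I to MOSE-L, 4 rose, 0 by the adjusted t-test, and none fell, but 1 (Abca1) did with an added value of 1, quantile normalization, median centring, the unadjusted t-test, no minimum change or without both arrays, and 0 to 1 with 1 array left out. The cause of these moves was not tested. Under median centring the median change of all tested probe sets was 0.14 from MOSE-E to MOSE-I and -0.18 from MOSE-I to MOSE-L, against 0.0080 and -0.0062 as deposited.

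With the replicate number as a block 7 genes rose from MOSE-E to MOSE-I, and the other counts were 12, 4, 1, 1 and 0 as before. Deviations of same-numbered arrays from their stage means correlated at -0.11 to 0.41. The highest values were 0.41 for replicate 1 and 0.26 for replicate 2, both between MOSE-E and MOSE-L. Arrays of different numbers were not compared, so that whether the numbers pair the arrays was not tested.

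Some signs turned. From MOSE-E to MOSE-L, Npc1 ran from -0.030 (without both arrays) to 1.39 with arrays left out and Stard4 from -0.27 to 0.81. All others were from MOSE-I to MOSE-L. Median centring gave -0.076 for Scap, -0.11 for Fdft1 and -0.054 for Scarb1, quantile normalization 0.14 for Hmgcs1, 0.064 for Idi1 and 0.099 for Ebp, the t-test, adjusted or not, 0.039 for Mvd, 0.11 for Idi1, 0.037 for Lss and 0.0055 for Ebp, and the mean over probe sets 0.15 for Hmgcs1, 0.083 for Idi1, -0.015 for Fdft1 and 0.69 for Lss. Without both arrays Scap was -0.058, Hmgcs1 0.31, Mvd 0.34, Idi1 0.40, Fdps 0.0042, Lss 0.37 and Ebp 0.16. With 1 array left out the ranges were -0.072 to 0.43 for Scap, -0.42 to 0.31 for Hmgcs1, -0.042 to 0.56 for Pmvk, -0.35 to 0.34 for Mvd, -0.60 to 0.40 for Idi1, -0.63 to 0.0042 for Fdps, -0.24 to 0.39 for Fdft1, -0.39 to 0.37 for Lss, -0.16 to 0.16 for Ebp and -0.18 to 0.28 for Scarb1.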

Other observations

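Single arrays moved other sterol genes outside the comparisons above. On MOSE-L replicate 3 the SREBP-cleaving protease gene Mbtps2 gave 3155, against 1018 and 1468 on the other MOSE-L arrays and 784 to 1078 in MOSE-E and MOSE-I cells. Erlin1, which takes part in the turnover of sterol-regulated membrane proteins, gave 6968 on that array, against 1253 and 1450 on its stage-mates. Lipa, the lysosomal acid lipase, gave 2036 there, against 797 and 793. These 3 genes were picked after their values were seen, as was the array.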
